A study of Homo sapiens with 12 samples.

Results

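The ephrins and their EPH receptors, and the semaphorins and their plexin receptors, were taken as all rows of the deposited expression table whose symbols begin with EFNA or EFNB, EPHA or EPHB, SEMA3 to SEMA7, or PLXNA to PLXND. The rule found 50 protein-coding genes among the 17520 of the table: 27 ligands (8 ephrins and 19 semaphorins) and 23 receptors (14 EPH receptors and 9 plexins). The cells were HEK293E, an established line of human embryonic kidney origin, starved of serum overnight. One group then received 200 nM insulin for 30 h after pretreatment with Torin1 at 250 nM, an inhibitor of the kinase mTOR. The other received the same insulin without Torin1, so both groups were starved and stimulated. Each group had 3 input libraries of poly(A) RNA and 3 miCLIP libraries. In miCLIP, crosslinking of an antibody against N6-methyladenosine (m6A) leaves substitutions in the reads that mark methylated adenosines.

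Ephrins bind EPH receptor tyrosine kinases on a touching cell. A-type ephrins are held to the membrane by a lipid anchor, B-type ephrins span it, and both the receptor-bearing and the ephrin-bearing cell can respond. Semaphorins are secreted (class 3) or held on the cell surface, and they bind plexins, in several cases through neuropilin coreceptors. Both systems are known for steering axons, for repulsion and sorting of cells, and for vessel and kidney development.

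Totals were 11418114 to 11438881 normalized units in the insulin+Torin1 libraries and 12424643 to 12528454 in the insulin libraries. The values are read counts that the authors scaled between libraries and rounded, and they are not divided by transcript length, so levels of different genes are not compared. The step between values put depth at 7.35 to 11.8 M reads in 5 libraries. For insulin+Torin1 replicate 1 no step was found, and its depth is unknown. Of 9 markers of HEK293 lines, 7 passed the filter on low values, and the list summed to 9076 to 9148 units with insulin+Torin1 and 4098 to 4149 with insulin. VIM alone averaged 7922 units with insulin+Torin1 and 2915 with insulin. VIM (1.44 on the log2 scale), KRT8 (1.01) and KRT18 (0.57) were higher with Torin1, NEFM (-1.05), NEFH (-3.12) and ENO2 (-0.76) were lower, and GATA3 was not called. Endothelial markers summed to 17 to 31 units with insulin+Torin1 and 104 to 151 with insulin, and fibroblast markers to 590 to 627 and 230 to 303. Blood cell markers summed to 48 to 55 and 151 to 168, with PTPRC at 0 or 1 in every library, and keratinocyte and hepatocyte markers to at most 14. Single genes carried much of the differences. With insulin+Torin1 and with insulin, CLDN5 (endothelial) averaged 14.7 and 116 units, COL1A1 (fibroblast) 497 and 214, and CD14 (blood) 4 and 88.7. The part of such cells in the results was not tested. In bulk RNA, fewer cells that express a gene and less RNA per cell cannot be told apart.

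Most of these ligand and receptor mRNAs were higher with Torin1. With limma, at a Benjamini-Hochberg adjusted p below 0.05 over all 13842 tested genes, 33 of the 48 tested members rose and 11 fell. Over all tested genes the shares were 43.4% called higher and 42.5% called lower. Beyond 1.5-fold, 26 members rose and 3 fell, where 25.0% and 22.5% of all tested genes did. The median log2 fold change was 0.92 over the tested members and 0.02 over all tested genes. The 3 libraries with Torin1 lay wholly above or below the 3 with insulin in 45 of the 48, and in 86.3% of all genes. EPHA1 and EPHB6 failed the filter of at least 10 units in 3 libraries. SEMA5A, SEMA5B and PLXNB3 passed it through the group where they are high only, so their direction was fixed by the filter. Without these 3 genes, 31 of 45 members rose and 10 fell, 24 and 2 of them beyond 1.5-fold, with a median log2 fold change of 0.92.

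Risers outnumbered fallers among ligands and among receptors. Of 27 tested ligands 19 rose and 5 fell, and their median log2 fold change was 0.92. Of 21 tested receptors 14 rose and 6 fell, and theirs was 1.00. Without those 3 genes 18 of 25 ligands and 13 of 20 receptors rose, and 4 and 6 fell. The difference between the 2 roles was not tested. By family, 4 of 8 ephrins, 8 of 12 EPH receptors, 15 of 19 semaphorins and 6 of 9 plexins rose, and 1, 3, 4 and 3 fell. Over all tested genes 43.4% rose and 42.5% fell, so the count of rising ephrins lies near the share over all genes. The semaphorin counts hold SEMA5A and SEMA5B and the plexin counts hold PLXNB3, whose directions the filter fixed. Scaling to equal totals shifted the median of all genes by 0.12 and gave medians of 1.04 for ligands and 1.13 for receptors. Quantile normalization gave 0.62 and 0.97, with 17 ligands and 12 receptors called higher and 6 of each called lower.

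**Figure D1:**
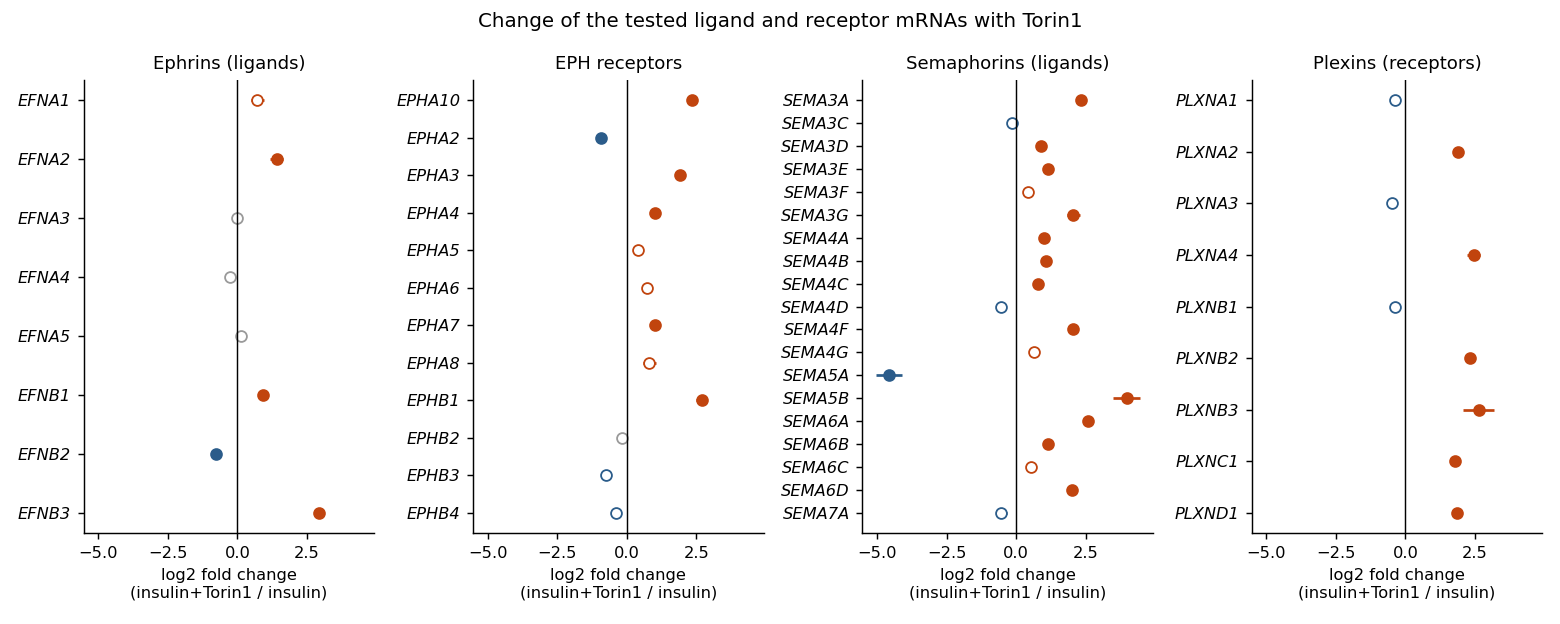
Log2 fold change (insulin+Torin1 over insulin) of the 48 tested genes by family, with bars of 1 standard error from limma. Orange is called higher, blue called lower and grey not called, and filled points passed the test beyond 1.5-fold. Of the plexins 6 of 9 lie right of 0, at 1.77 to 2.64, and PLXNA1, PLXNA3 and PLXNB1 lie left, at -0.48 to -0.36. PLXNB3, at 2.64, passed the filter through 1 group only, as did SEMA5A and SEMA5B, so these directions were fixed by the filter. The next highest plexin is PLXNA4, at 2.45.

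Among the ephrins, the B types held the largest rise and the one called fall. EFNB2, a transmembrane ligand that pairs with EPHB4 between arteries and veins, had 2462, 2457 and 2463 units with insulin+Torin1 and 4062, 4204 and 4265 with insulin. The insulin+Torin1 libraries were all lower, at 0.589 times the insulin level, a log2 fold change of -0.76 (SE 0.03, limma adjusted p = 5.38e-16). EFNB3, a B-type ligand of the nervous system that binds EPHA4, had 266, 282 and 248 units with insulin+Torin1 and 41, 26 and 36 with insulin. Its groups did not overlap, at 265 ± 17.0 units with insulin+Torin1 and 34.3 ± 7.64 with insulin (mean ± SD, n = 3 each), and it rose by 2.94 on the log2 scale (SE 0.15, limma adjusted p = 1.32e-14). EFNB1, mutated in craniofrontonasal syndrome, had 341, 360 and 370 units with insulin+Torin1 and 196, 172 and 196 with insulin, a rise of 0.92 (limma adjusted p = 4.35e-10). All 3 B-type ephrins thus passed the test beyond 1.5-fold, although EFNB2 did not with scaling to equal totals (-0.64) or quantile normalization (-0.46).

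Of the 5 A-type ephrins 2 rose and 3 were not called. EFNA2 had 66, 74 and 47 units with insulin+Torin1 and 19, 28 and 21 with insulin, without overlap, and rose by 1.41 (SE 0.22, limma adjusted p = 3.27e-06). EFNA1, a ligand of EPHA2, averaged 38.0 ± 5.29 units with insulin+Torin1 and 22.7 ± 3.51 with insulin (SD, n = 3 each) and rose by 0.72, a call lost with quantile normalization (0.42, limma adjusted p = 0.0901). EFNA3, EFNA4 and EFNA5 were not called, with log2 fold changes of 0.00, -0.27 and 0.14. EFNA5 was called higher with scaling to equal totals (0.27) and without insulin+Torin1 replicate 3 (0.24), and was at -0.14 with quantile normalization. EFNA4 was called lower with quantile normalization (-0.67), without the variance trend (-0.27) and without insulin replicate 1 (-0.33), and EFNA3 with quantile normalization (-0.40). EFNA1, EFNA3 and EFNA4 lie together on chromosome 1, between 155063740 and 155134899 (GRCh38), where read-through transcripts join EFNA4 to EFNA3 and ADAM15 to EFNA4. How the authors assigned reads of such transcripts is not given in the sources used here, so the values of EFNA3 and EFNA4 are uncertain. The same holds, where strand was not used in counting, for members that overlap another gene: EPHB4 with SLC12A9, SEMA4D with SECISBP2, SEMA4G with MRPL43, PLXNC1 with CEP83 and PLXNA3 with LAGE3.

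The EPHA receptors were mostly higher. EPHA7, which binds A-type ephrins in the developing brain, had 2256, 2325 and 2279 units with insulin+Torin1 and 1126, 1238 and 1061 with insulin. The groups did not overlap and the level was 2.01 times as high (log2 fold change 1.00, SE 0.05, limma adjusted p = 2.09e-15). EPHA3 had 677, 685 and 684 units with insulin+Torin1 and 175, 181 and 182 with insulin, a log2 fold change of 1.92 (SE 0.07, limma adjusted p = 1e-17). Its replicates were close in both groups, with SDs of 4.36 and 3.79 units.

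EPHA4, a receptor for both ephrin types, had 645, 688 and 638 units with insulin+Torin1 and 327, 309 and 331 with insulin, and rose by 1.02. EPHA10, whose kinase domain is held to be inactive, had 174, 181 and 208 units with insulin+Torin1 and 29, 40 and 39 with insulin, and rose by 2.36. Neither gene's groups overlapped, and the larger of the 2 limma adjusted p-values was 8.84e-13. EPHA6, EPHA8 and EPHA5 rose by 0.75, 0.81 and 0.42 and did not pass beyond 1.5-fold; EPHA8 and EPHA5 were not called with quantile normalization, at 0.52 and 0.07. EPHA1 had 7 to 11 units with insulin+Torin1 and 2 to 7 with insulin and was not tested.

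One EPHA receptor fell. EPHA2, a receptor widely made by epithelial and tumour cells, had 124, 145 and 120 units with insulin+Torin1 and 276, 214 and 244 with insulin. The groups did not overlap, at 130 ± 13.4 units with insulin+Torin1 and 245 ± 31.0 with insulin (SD, n = 3 each), and the change was -0.91 on the log2 scale (SE 0.11, limma adjusted p = 6.18e-08). The call beyond 1.5-fold was lost with scaling to equal totals (-0.78) and without insulin replicate 1 (-0.82).

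The EPHB receptors split. EPHB1 had 95, 91 and 120 units with insulin+Torin1 and 15, 12 and 18 with insulin, with no overlap, and rose by 2.69 (SE 0.21, limma adjusted p = 2.52e-11). EPHB4, the EFNB2 receptor of veins, had 1160, 1168 and 1164 units with insulin+Torin1 and 1611, 1493 and 1412 with insulin. All insulin+Torin1 libraries were lower, at -0.37 (SE 0.05, limma adjusted p = 1.12e-07), and EPHB3 was at -0.74 (SE 0.18, limma adjusted p = 0.000493). EPHB2 was at -0.17 and not called, but was called lower with quantile normalization (-0.46) and without insulin replicate 2 (-0.27). EPHB6, whose kinase domain is inactive, was listed at 0 in the 3 insulin libraries and at 5, 3 and 14 units with insulin+Torin1.

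The secreted class 3 semaphorins rose in 5 of 6 cases. SEMA3A, the classical repellent of growing axons, had 220, 232 and 233 units with insulin+Torin1 and 48, 37 and 51 with insulin. With no overlap, the rise was 2.32 on the log2 scale (SE 0.14, limma adjusted p = 1.54e-13). SEMA3E, which binds PLXND1 without a neuropilin, had 234, 238 and 252 units with insulin+Torin1 and 116, 106 and 102 with insulin, a rise of 1.15. SEMA3D had 247, 243 and 233 units with insulin+Torin1 and 116, 127 and 140 with insulin, a rise of 0.92. SEMA3G had 80, 70 and 86 units with insulin+Torin1 and 12, 23 and 21 with insulin, a rise of 2.06. None of these groups overlapped.

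A group of 4 class 3 genes lies in a row on chromosome 7 (GRCh38): SEMA3C at 80742538 to 80922389, SEMA3E at 83363238 to 83649139, SEMA3A at 83955777 to 84492725 and SEMA3D at 84995553 to 85250243. SEMA3E, SEMA3A and SEMA3D rose and SEMA3C did not. It had 729, 816 and 833 units with insulin+Torin1 and 858, 887 and 896 with insulin, a log2 fold change of -0.15 (SE 0.05, limma adjusted p = 0.0108). That call was lost with scaling to equal totals (-0.03), with quantile normalization (-0.06), without the variance trend and without insulin+Torin1 replicate 1 (-0.09). SEMA3F, a ligand for NRP2, was at 0.41, and at 0.02 and not called with quantile normalization.

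Of the membrane-bound class 4 semaphorins 5 rose and 1 fell. SEMA4F, a semaphorin with a C-terminal PDZ-binding tail, had 492, 545 and 524 units with insulin+Torin1 and 124, 117 and 136 with insulin. That was 4.12 times the insulin level, without overlap (log2 fold change 2.04, SE 0.08, limma adjusted p = 2.14e-16). SEMA4A had 183, 169 and 182 units with insulin+Torin1 and 80, 91 and 97 with insulin, a rise of 0.99. SEMA4B had 267, 274 and 272 units with insulin+Torin1 and 135, 114 and 138 with insulin, a rise of 1.07. SEMA4C, a ligand of PLXNB2, had 466, 457 and 454 units with insulin+Torin1 and 269, 247 and 281 with insulin, a rise of 0.79. These 3 genes showed no overlap either, and SEMA4G was at 0.64. SEMA4D (CD100), the ligand of PLXNB1, went the other way, with 457, 488 and 478 units with insulin+Torin1 and 761, 667 and 650 with insulin, at -0.54 (SE 0.06, limma adjusted p = 3.11e-08).

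The 2 class 5 semaphorins, which carry thrombospondin repeats, moved in opposite directions. SEMA5A had 1, 0 and 0 units with insulin+Torin1 and 34, 33 and 22 with insulin, so it was at 0 or 1 in every insulin+Torin1 library. SEMA5B had 39, 34 and 49 units with insulin+Torin1 and 2, 0 and 5 with insulin. Each passed the filter through the group where it is high only, so it had to differ, and no p is given. The fitted log2 fold changes, -4.58 for SEMA5A and 3.98 for SEMA5B, became -2.16 and 2.25 with a pseudocount of 8 in place of 1. SEMA5A did not pass the filter without any one insulin library, nor SEMA5B without any one insulin+Torin1 library. Without insulin replicate 2 or 3 SEMA5B was at 3.28 and 4.57.

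All 4 class 6 semaphorins rose, and the single class 7 gene fell. SEMA6A, a ligand of PLXNA2 and PLXNA4, had 381, 385 and 380 units with insulin+Torin1 and 73, 57 and 58 with insulin. The groups did not overlap, and the rise was 2.60 (SE 0.11, limma adjusted p = 3.81e-16). SEMA6D had 118, 119 and 109 units with insulin+Torin1 and 31, 22 and 32 with insulin, a rise of 2.01. SEMA6B had 120, 117 and 109 units with insulin+Torin1 and 54, 63 and 40 with insulin, a rise of 1.15, and SEMA6C rose by 0.53. SEMA7A, which is anchored by lipid and also binds integrins, averaged 37.7 ± 4.93 units with insulin+Torin1 and 55.3 ± 9.87 with insulin (SD, n = 3 each), at -0.54. Its limma adjusted p was 0.0142, but 0.0521 with scaling to equal totals, 0.059 and 0.0563 without insulin replicates 2 and 3, and 0.0653 without insulin+Torin1 replicate 3.

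**Figure D2:**
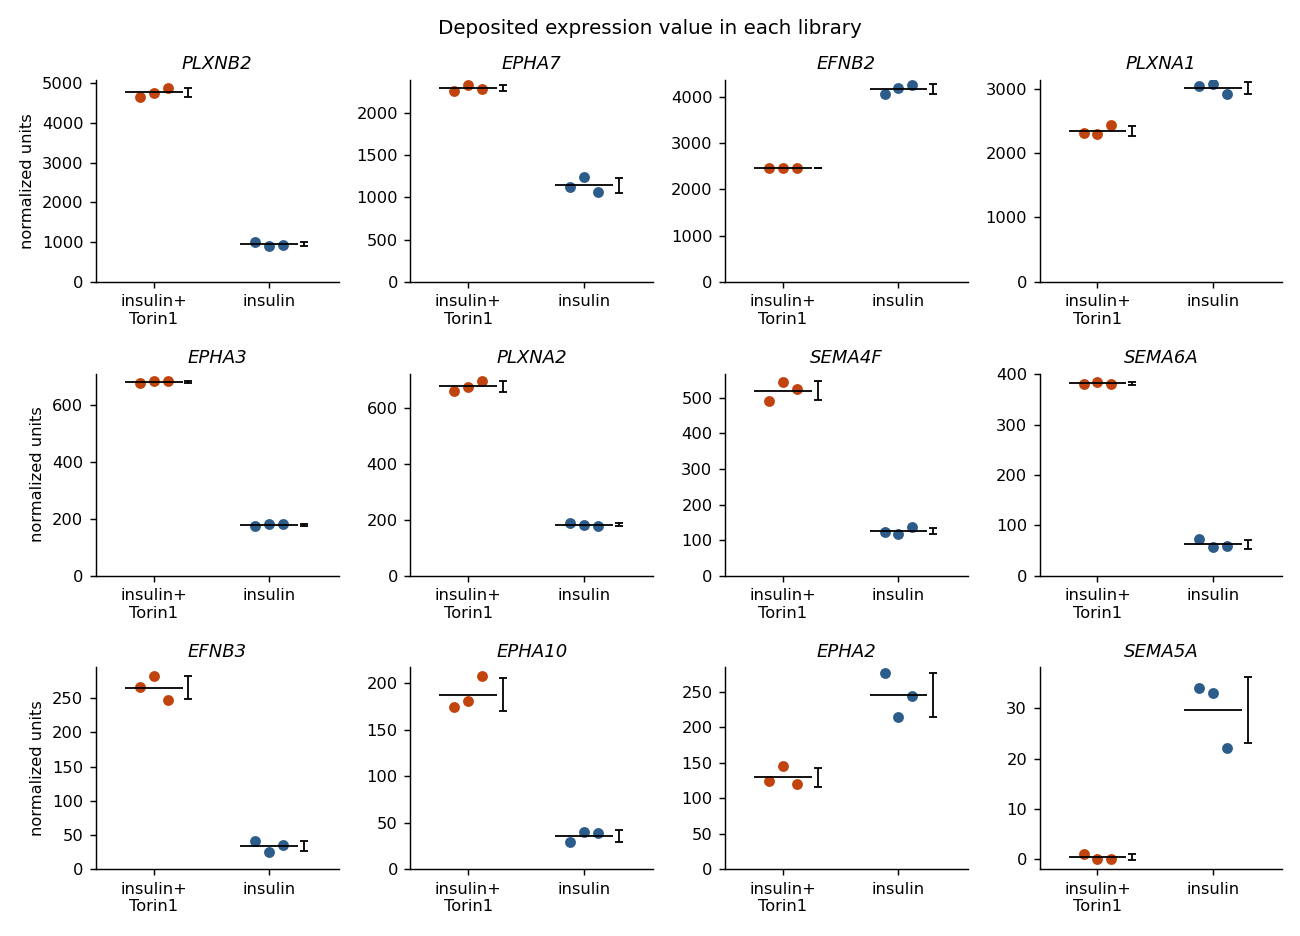
Normalized units in each library for 12 of the genes, insulin+Torin1 left and insulin right, with 3 points, a line at the mean and a bar of 1 SD per group. The groups do not overlap in any panel, as in 86.3% of all tested genes, and for SEMA5A the filter fixed this. PLXNB2 is near 4768 units with insulin+Torin1 and 948 with insulin, and EFNB2 near 2461 and 4177.

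PLXNB2 had the smallest adjusted p of the tested members. This plexin, a receptor for SEMA4C in the developing brain, had 4655, 4762 and 4887 units with insulin+Torin1 and 998, 913 and 932 with insulin. That is 5.03 times the insulin level (log2 fold change 2.33, SE 0.04, limma adjusted p = 3.57e-23), with no overlap. PLXNB3 had 15, 12 and 13 units with insulin+Torin1 and 0, 1 and 5 with insulin, a fitted log2 fold change of 2.64 that became 1.12 with a pseudocount of 8. It too passed the filter through 1 group only, and not without any one insulin+Torin1 library; without insulin replicate 1 or 3 it was at 2.04 and 3.34. PLXNB1, the SEMA4D receptor, had 572, 596 and 607 units with insulin+Torin1 and 797, 756 and 767 with insulin, at -0.39 (limma adjusted p = 3.78e-07).

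The A plexins, which have neuropilins as coreceptors, divided by gene. PLXNA2 had 660, 675 and 698 units with insulin+Torin1 and 187, 182 and 177 with insulin, a rise of 1.89 (SE 0.07, limma adjusted p = 1.72e-17). PLXNA4 had 100, 95 and 97 units with insulin+Torin1 and 27, 12 and 15 with insulin, a rise of 2.45 (SE 0.23, limma adjusted p = 1.12e-09). PLXNA1 and PLXNA3 were lower. PLXNA1 had 2311, 2293 and 2429 units with insulin+Torin1 and 3047, 3073 and 2912 with insulin, at -0.36 (limma adjusted p = 3.17e-09), but at -0.05 and not called with quantile normalization. PLXNA3 had 1156, 1102 and 1233 units with insulin+Torin1 and 1740, 1631 and 1495 with insulin, at -0.48. PLXND1, the SEMA3E receptor of vessels, had 386, 399 and 462 units with insulin+Torin1 and 99, 114 and 127 with insulin, a rise of 1.87. PLXNC1, the SEMA7A receptor, had 157, 149 and 135 units with insulin+Torin1 and 46, 36 and 46 with insulin, a rise of 1.77. Both showed no overlap between groups.

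Ligands can be set beside a receptor they are known to bind, in 15 textbook pairs chosen with these values known. Both partners rose in 5 pairs: EFNB3 with EPHA4, SEMA3E with PLXND1, SEMA4C with PLXNB2, and SEMA6A with PLXNA2 and with PLXNA4. Both fell in 2 pairs, EFNB2 with EPHB4 and SEMA4D with PLXNB1. In 3 pairs the ligand rose and the receptor fell (EFNA1 with EPHA2, EFNB3 with EPHB3, SEMA6D with PLXNA1). The reverse held in 2 pairs, SEMA7A with PLXNC1 and SEMA5A with PLXNB3, and both calls of the SEMA5A pair were fixed by the filter. In the other 3 pairs one partner was not called. Most members rose in any case, 19 of 27 tested ligands and 14 of 21 tested receptors, and SEMA6A, EFNB3 and EFNA5 recur among the pairs. Whether partners moved together more often than unpaired ligands and receptors was not tested.

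**Figure D3:**
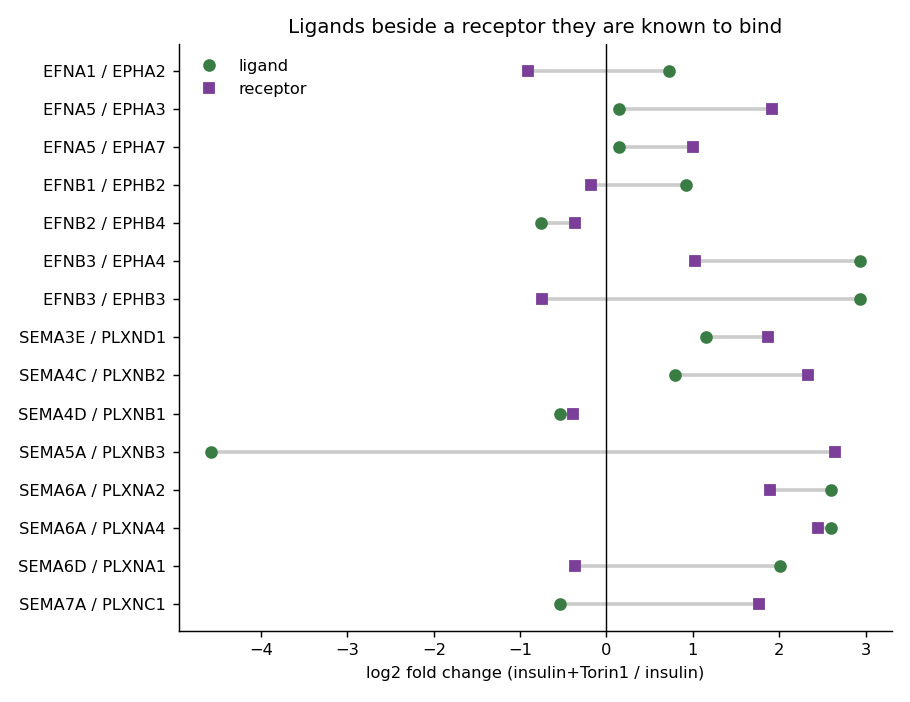
Log2 fold change (insulin+Torin1 over insulin) of the ligand (circle) and the receptor (square) in 15 pairs, joined by a line. EFNB2 with EPHB4 and SEMA4D with PLXNB1 lie wholly left of 0, and SEMA5A with PLXNB3, whose directions the filter fixed, is at -4.58 and 2.64.

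Of 109 listed genes that work with these families, 97 were tested; 47 rose and 35 fell, and the median of their log2 fold changes was 0.17. Over all tested genes 43.4% rose and 42.5% fell, so the counts of the list lie near the shares over all genes. Without the 6 listed genes that passed the filter through 1 group only, 45 rose and 33 fell of 91. The list was drawn up with earlier results of these data known. Coreceptors rose in 6 of 9 tested cases, and L1CAM, ITGB1 and CD72 were not called, at -0.06, 0.08 and 0.58. ERBB2, a kinase partner of plexin B receptors, averaged 1156 ± 102 units with insulin+Torin1 and 274 ± 4.51 with insulin (SD, n = 3 each), a rise of 2.07. NRP2, the neuropilin of SEMA3F, had 356 ± 24.7 units with insulin+Torin1 and 104 ± 17.2 with insulin (SD, n = 3 each) and rose by 1.77, and the pseudokinase PTK7 rose by 1.53. NRP1, the neuropilin of SEMA3A, rose by 0.99 and is named after its value was seen.

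Of 28 adaptors and exchange factors 13 rose and 13 fell. NCK2, an adaptor gene, rose by 1.89 and NGEF, the gene of ephexin, by 1.77. CRKL, an adaptor, had 1967 ± 34.7 units with insulin+Torin1 and 9145 ± 79.5 with insulin (SD, n = 3 each) and fell by 2.22 on the log2 scale, with FARP2 at -1.76. PTPRO had 19, 25 and 13 units with insulin+Torin1 and 2, 3 and 3 with insulin, and SH2D3C had 7, 4 and 4 with insulin+Torin1 and 17, 17 and 12 with insulin. Both passed the filter through 1 group only, and their fitted log2 fold changes, 2.41 and -1.47, became 1.32 and -0.84 with a pseudocount of 8. Of 40 kinases, GTPases and cytoskeletal genes 14 rose and 19 fell. CRMP1, a mediator of SEMA3A signalling, had 221 ± 5.86 units with insulin+Torin1 and 21.0 ± 2.65 with insulin (SD, n = 3 each) and rose by 3.34, followed by CDK5 (2.84) and LIMK2 (1.74). RND1, a small GTPase that binds plexins, had 46.7 ± 14.4 units with insulin+Torin1 and 322 ± 18.3 with insulin (SD, n = 3 each), which is -2.80 on the log2 scale, with the cofilin phosphatase gene SSH1 at -1.29 and the myosin light chain gene MYL12A at -1.01. Of 4 sheddase genes 2 rose and 2 fell, with ADAM17 at -1.10. Netrin, SLIT and RGM ligands and their receptors rose in 12 of 16 tested cases and fell in 1; UNC5A was at 3.07 (2.31 with a pseudocount of 8, and through the filter by 1 group only), SLIT3 at 2.71, UNC5C at 2.02 and RGMB at -1.25.

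The m6A lists, 1 per condition, gave each position once, under 1 replicate, with the reads over it and the substituted reads. On the strand and within the body of the 50 genes (RefSeq, GRCh38) lay 262 of the 63578 sites of the insulin+Torin1 list and 267 of the 96671 sites of the insulin list. These are 0.412% (Wilson 95% interval 0.365% to 0.465%) and 0.276% (0.245% to 0.311%) of the lists; the intervals cover counting error only. Under replicate 1 the numbers were 234 of 56298 and 155 of 50656 sites, under replicate 2 they were 6 of 1552 and 97 of 39670, and under replicate 3 they were 22 of 5728 and 15 of 6345. The shares were 0.416%, 0.387% and 0.384% with insulin+Torin1 and 0.306%, 0.245% and 0.236% with insulin, for replicates 1 to 3. These are parts of 1 list per condition and not repeated measurements, since each position is listed once. The Wilson 95% intervals overlapped for replicate 2 (0.177% to 0.841% with insulin+Torin1, 0.2005% to 0.298% with insulin). They also overlapped for replicate 3 (0.254% to 0.581% and 0.143% to 0.390%), but not for replicate 1 (0.366% to 0.472% and 0.2615% to 0.358%). The insulin+Torin1 shares of replicates 2 and 3 rest on 6 and 22 sites, and no test was made because the genes were chosen with results of these data known. At least 1 site was listed for 43 of the 50 genes. Exons and introns were not told apart here.

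In the 33 genes with higher mRNA the lists held 154 sites with insulin+Torin1 and 103 with insulin, and under replicate 1 they held 137 and 55. In the 11 genes with lower mRNA they held 97 and 151, and under replicate 1 they held 87 and 89. The whole lists held 63578 and 96671 sites, and 56298 and 50656 under replicate 1. The counts by direction were not scaled to these list sizes. Over all sites 16 of the 33 rising genes had more with insulin+Torin1 and 10 had fewer, while of the 11 falling genes 1 had more and 7 fewer. Under replicate 1, 22 of the 33 rising genes had more sites with insulin+Torin1 and 3 had fewer, while of the 11 falling genes 4 had more and 3 fewer. Reads over the sites differed too, with a median of 17.5 with insulin+Torin1 and 8.0 with insulin, and 20.5 and 9.0 under replicate 1. The part of list size, mRNA level and read depth in these site numbers was not tested.

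Sites per gene ranged up to 33 with insulin+Torin1 and 42 with insulin. With insulin+Torin1 the most sites were in EFNB2 (33), PLXNB2 (28), PLXNA1 (21), EPHA7 (17) and PLXNA3 (13). With insulin they were in PLXNA1 (42), EFNB2 (41) and PLXNA3 (21), then EPHA7 and EPHB4 (13 each). The largest gains were in PLXNB2, with 28 sites with insulin+Torin1 and 12 with insulin, PLXNA2, with 11 and 2, and SEMA6A, with 8 and 0. Under replicate 1 these were 25 and 6, 8 and 1, and 8 and 0. The mRNA of PLXNB2, PLXNA2 and SEMA6A was higher with insulin+Torin1 too, at log2 fold changes of 2.33, 1.89 and 2.60. The part of mRNA level and read depth in these gains was not tested. The largest losses in number were in PLXNA1, with 21 and 42 sites, EFNB2, with 33 and 41, and PLXNA3, with 13 and 21. The whole insulin+Torin1 list was shorter too, at 63578 sites against 96671, and counts per gene were not scaled to list size. A lower number therefore need not be a lower share of the list. Under replicate 1 PLXNA1 had 19 and 28, but EFNB2 had 30 and 25 and PLXNA3 had 11 and 11, so those losses were not seen among the sites listed under that replicate.

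**Figure D4:**
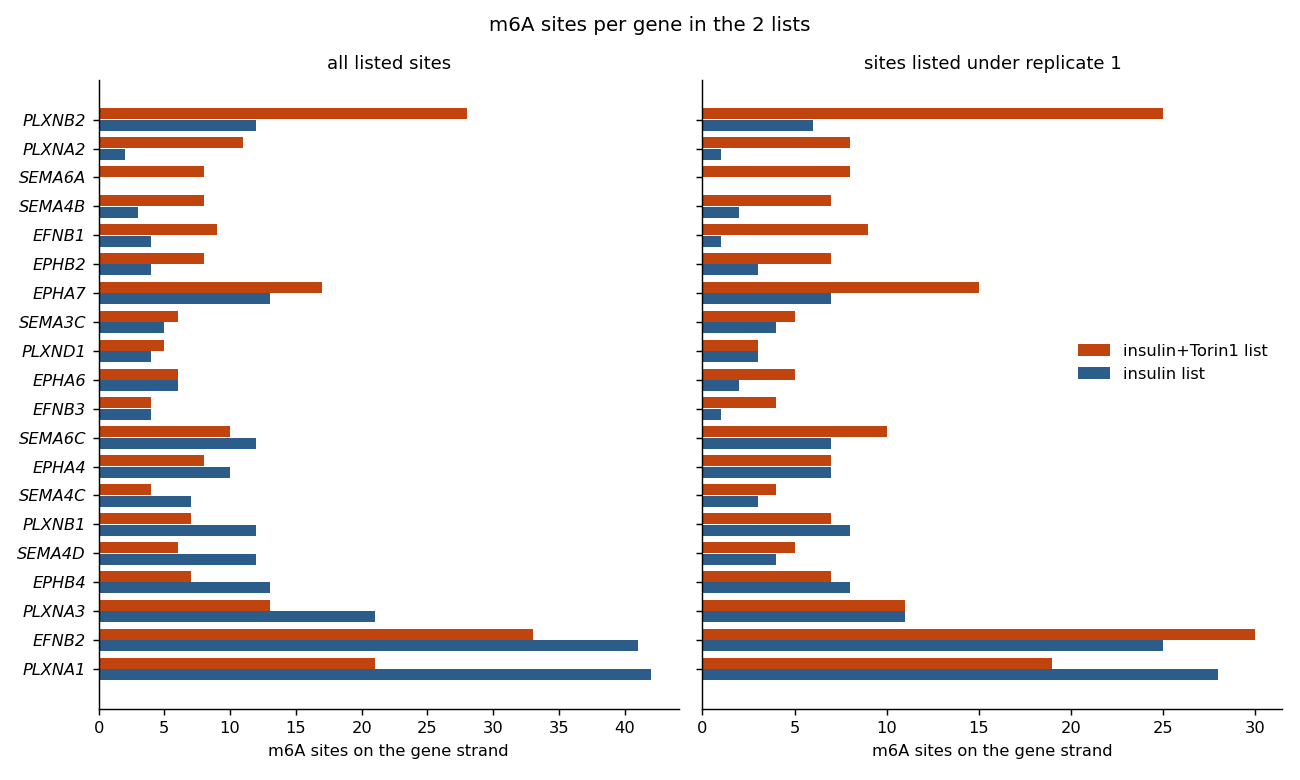
Number of m6A sites per gene (x axis) in the insulin+Torin1 list (orange, above) and the insulin list (blue, below) for genes with at least 8 sites in the lists together, for all sites (left) and those listed under replicate 1 (right). PLXNB2 has 28 and 12 sites on the left and 25 and 6 on the right, while EFNB2 has 33 and 41 on the left and 30 and 25 on the right.

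A larger share of ligand than of receptor sites lay near the gene end. Within 2000 nt of the annotated gene end were 39.3% of 117 ligand sites with insulin+Torin1 and 51.3% of 117 with insulin, against 20.7% of 145 and 18.7% of 150 receptor sites. Under replicate 1 the shares were 38.5% and 46.4% for ligands and 21.6% and 18.6% for receptors. Many sites belong to few genes, and no test was made. The distance is to the end of the gene body, without exons or coding regions, and no share for other genes is given. The part of transcript length in this contrast was not tested. Positions in both lists numbered 94, which is 35.9% of the insulin+Torin1 sites and 35.2% of the insulin sites of these genes.

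The sites are shown by the 5 bases around the methylated adenosine, in capitals, read on the RNA strand and written with T; all sites of both lists have the form known as DRACH, where the base after the adenosine is C and the base before it a purine. Of 435 positions in these genes 72 read ggAca and 53 ggAct, the most frequent forms, followed by tgAct with 40. Sites opening with the 4 bases GGAC made up 42.0% with insulin+Torin1 and 37.8% with insulin, where the whole lists had 32.9% and 31.5%. Under replicate 1 these shares were 41.5% and 40.6%, against 33.3% and 33.4%.

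EFNB2 (chromosome 13, 106489745 to 106535662, minus strand) carried the most substituted reads at shared positions. A stretch under 500 nt, from 106492720 to 106493179, held 14 of its 48 positions, 13 of them in both lists, between 2975 and 3434 nt before the annotated gene end. The leading position, 106492919, reads ggAca and had 33 substituted of 465 reads with insulin+Torin1 and 22 of 261 with insulin. The shares were 7.10% (Wilson 95% interval 5.10% to 9.80%) and 8.43% (5.63% to 12.4%), which overlap. The next position, 106492887, is 32 nt away, also reads ggAca, and had 25 of 306 and 20 of 205 reads substituted, or 8.17% and 9.76%. All 4 values were listed under replicate 1. At this position too the intervals, 5.59% to 11.8% and 6.41% to 14.6%, overlap. The intervals at both positions cover counting error of the reads only, and not the spread between libraries.

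The other named positions had fewer substituted reads. In PLXNB2 (chromosome 22, 50274979 to 50307646, minus strand) position 50290308 reads tgAct, with 12 of 304 reads substituted with insulin+Torin1 and 3 of 7 with insulin. Position 50289782 reads ggAcc, with 12 of 307 and 2 of 26. In SEMA6C (chromosome 1, 151131685 to 151146631, minus strand) position 151132171 reads agAct, with 10 of 119 and 4 of 45, and position 151146173 reads ggAct, with 9 of 22 and 1 of 6. PLXNA3 position 154460364 on chromosome X reads tgAct, with 11 of 62 and 1 of 6, and PLXND1 position 129556227 on chromosome 3 reads tgAct, with 9 of 43 and 1 of 3. At most of these positions the insulin list had under 10 reads, too few to compare shares.

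The 250 bases before an annotated start are shown for 3 genes, 2 that rose and 1 that fell, since most members moved together. Sequences are from the RefSeq table of GRCh38.p14, printed 5′ to 3′ on the gene strand with each GC box (GGGCGG or its reverse complement CCGCCC) in capitals. They are chr22:50301670-50301919 for PLXNB2, chr3:89107371-89107620 for EPHA3 and chr13:106535663-106535912 for EFNB2, on the minus, plus and minus strands. The PLXNB2 window lies inside the annotated gene body, before an inner start.
PLXNB2: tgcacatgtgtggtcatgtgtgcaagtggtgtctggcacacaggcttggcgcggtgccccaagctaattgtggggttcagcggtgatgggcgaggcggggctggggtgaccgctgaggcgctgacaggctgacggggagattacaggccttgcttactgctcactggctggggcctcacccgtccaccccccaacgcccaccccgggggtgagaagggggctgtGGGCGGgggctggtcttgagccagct
EPHA3: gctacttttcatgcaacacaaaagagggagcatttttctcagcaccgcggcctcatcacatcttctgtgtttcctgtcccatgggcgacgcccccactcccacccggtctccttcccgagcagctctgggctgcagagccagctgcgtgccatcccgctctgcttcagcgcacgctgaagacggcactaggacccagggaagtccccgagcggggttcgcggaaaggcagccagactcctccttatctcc
EFNB2: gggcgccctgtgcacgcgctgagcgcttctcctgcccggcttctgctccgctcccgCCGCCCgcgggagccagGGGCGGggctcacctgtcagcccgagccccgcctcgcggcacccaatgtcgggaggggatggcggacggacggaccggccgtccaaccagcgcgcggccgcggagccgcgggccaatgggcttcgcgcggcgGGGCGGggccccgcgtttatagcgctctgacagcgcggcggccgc
EFNB2 held 3 GC boxes, PLXNB2 held 1 and EPHA3 held 0, with 78.4%, 66.4% and 61.2% G and C. Of the 45 members that matched RefSeq, 41 had a GC box on either strand, 91.1%, as did 74.8% of the 10429 tested genes that matched. It was found in 24 of 28 matched members with higher mRNA and 11 of 11 with lower mRNA. The E-box CACGTG, which reads the same on both strands, searched in the same windows, was in 4 of 45 members (EPHA8, SEMA3E, SEMA4D and SEMA6D) and in 11.3% of matched tested genes. A match is a description of these letters and not a binding site.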

How the data were processed

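The members and gene lists were chosen with earlier results of these data known. Members were matched by symbol in the table of input libraries, and samples were grouped by their titles. The labels call the replicates biological without naming separate cultures, so p-values measure the spread between these libraries only. The submitters' processing notes name the build hg38 and, with no role for any of them, DESeq2 1.22.2, DESeq, STAR and BWA 0.7.1. The expression values that the authors deposited are a score: read counts normalized between libraries and rounded, as whole numbers missing at regular steps show (41 of the first 100 in insulin replicate 1). No count model was therefore used. The test was limma 3.58.1 (R 4.3.3), run with a variance trend on log2(value + 1) for genes with at least 10 units in at least 3 libraries, adjusted over all 13842 genes. Its treat test asked for a change beyond 1.5-fold. Fold changes on this scale understate low genes. The procedure was tested on simulated data with far fewer changed genes than were called here, so that test does not measure the errors of these calls. For m6A, the authors deposited a fraction per site, substituted reads over all reads, per the file contents. Gene bodies were those of RefSeq GRCh38.p14, and 45 genes took their strand from its promoter table. The other five (EPHA10, SEMA6A, SEMA3A, EFNB3 and SEMA6B) took that of most of their sites. In the 45 genes 94.5% of sites lay on the gene strand. Values per library are given for members called beyond 1.5-fold and for others where a comparison turns on them, and up to 3 pathway genes called beyond 1.5-fold are named per class and direction, by size. Shared positions are the 8 with the most substituted reads, at most 2 per gene. Alternatives were pseudocounts, filters, scaling, a replicate block, no trend, each library left out, and stricter site rules.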

Additional observations from a re-analysis of the deposited data

How the results depend on the processing

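Of the 48 tested members, 37 kept their direction and their side of the threshold in every alternative that tested them. The other eleven are named with their values in the results, and the 1 reversal was EFNA3, called at -0.40 with quantile normalization. Lower ligands numbered 3 in place of 5 with a minimum of 50 units and with scaling to equal totals, and 3 to 5 with 1 library left out. Members lower beyond 1.5-fold numbered 1 in place of 3 with scaling to equal totals, where SEMA5A was left, and 1 to 3 with 1 library left out. Without insulin replicate 1 only EFNB2 was left of those 3, and SEMA5A no longer passed the filter. Without insulin replicate 2 or insulin replicate 3 the lower ligands were 3. Leaving out genes that passed the filter through 1 group only, an alternative chosen after seeing the data, kept the counts of calls within 1.5 times. The replicate block left 33 members higher and 11 lower; libraries of the same number did not deviate together (correlations of -0.0234, 0.00972 and -0.00399), so the numbers pair nothing.

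Site numbers (insulin+Torin1, insulin, and shared positions, 262, 267 and 94 in all) moved with stricter rules, except the 234 insulin+Torin1 sites under replicate 1 alone. They were 128, 113 and 42 with at least 2 substituted reads, 167, 121 and 62 with at least 10 reads, and 115, 115 and 45 in bodies that overlap no other gene. Under replicate 1 alone the insulin sites were 155 and the shared positions 59. With the sites of 1 replicate left out they ranged from 28 to 256, from 112 to 252 and from 5 to 85, lowest each time without replicate 1. Depth is 1 limit on the m6A values: the median was 17.5 reads with insulin+Torin1 and 8.0 with insulin.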
